A study of Caenorhabditis elegans with 14 samples.

Results

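The transcriptome of wild-type *Caenorhabditis elegans* (strain N2) fed *anc-1* RNAi bacteria was compared with that of wild-type worms fed bacteria carrying the empty vector (EV). The samples were taken by their labels, genotype wild type and RNAi treatment *anc-1* or empty vector, and make up 6 of the 14 samples of the series, with 3 EV and 3 *anc-1* RNAi samples. All of them were whole-worm homogenates of hermaphrodites on day 6 of adulthood, fed HT115 bacteria from hatching and washed every day to remove progeny, and no transgene is carried by N2. The remaining 8 samples came from worms that express polyQ35-YFP, a glutamine stretch fused to a fluorescent protein, in body wall muscle, under the same pair of treatments. A feeding knockdown lowers a transcript without removing the gene, so what was compared is reduced *anc-1* rather than its absence.

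ANC-1 is a giant nesprin of the outer nuclear membrane. It holds actin on its cytoplasmic side and is anchored through the SUN protein UNC-84, and together such pairs form the LINC complex, which joins the cytoskeleton to the nuclear lamina. In worms that lack it, nuclei and mitochondria are no longer held in place in the large syncytial epidermis.

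Per EV sample 5694086 to 10513485 reads fell on the listed genes, and 4934531 to 7227357 per *anc-1* RNAi sample. Values are read counts divided by a size factor per sample (normalized read counts), for 12061 protein-coding genes. The log2 fold change given throughout is that of the knockdown over EV, on the log2(value + 1) scale, its error is the standard error (SE), and a gene was called when its limma p, adjusted by Benjamini-Hochberg over all of these genes, was under 0.05. By that rule 13.6% of the genes were called, 7.5% upregulated and 6.13% downregulated, and these are the shares against which the counts of each family below are read. The groups did not overlap in 31.7% of the genes, 15.8% with all *anc-1* RNAi samples above all EV samples and 15.8% with all of them below. The median log2 fold change over all genes was 0.0035.

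Among the called genes, the upregulated ones moved farther than the downregulated ones. Their median log2 fold change was 0.87 against -0.60, and 355 upregulated but 184 downregulated genes changed by more than 2-fold. The downregulated genes had the higher counts, with a median normalized read count per gene, not corrected for length, of 381, compared with 148 for upregulated genes and 65.7 for all genes. Genes of low counts need a larger change to be called, and what part this had in the larger upregulated changes was not tested. Calls that held when any one sample was left out numbered 498 up and 305 down, and every called gene named below is among them unless the sample it depends on is given. Members of a list beyond its 3 called genes of largest change in each direction, and genes on no list, were chosen for naming after their values were seen. Downregulated genes numbered 349 when EV replicate 2 was left out and 486 when *anc-1* RNAi replicate 1 was. Below, a sample that was left out is given by its group and replicate number. A limma fit without the variance trend, which gives low and high genes the same prior spread, called 329 up and 155 down. It kept 101 of the 207 called genes that are named here, and a family whose count moved by more than 1.5 times in that fit is given with that count. The counts of 2 or fewer given below moved by at most 2 with any one sample left out or in another fit, and those values are given for only some of them.

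**Figure D1:**
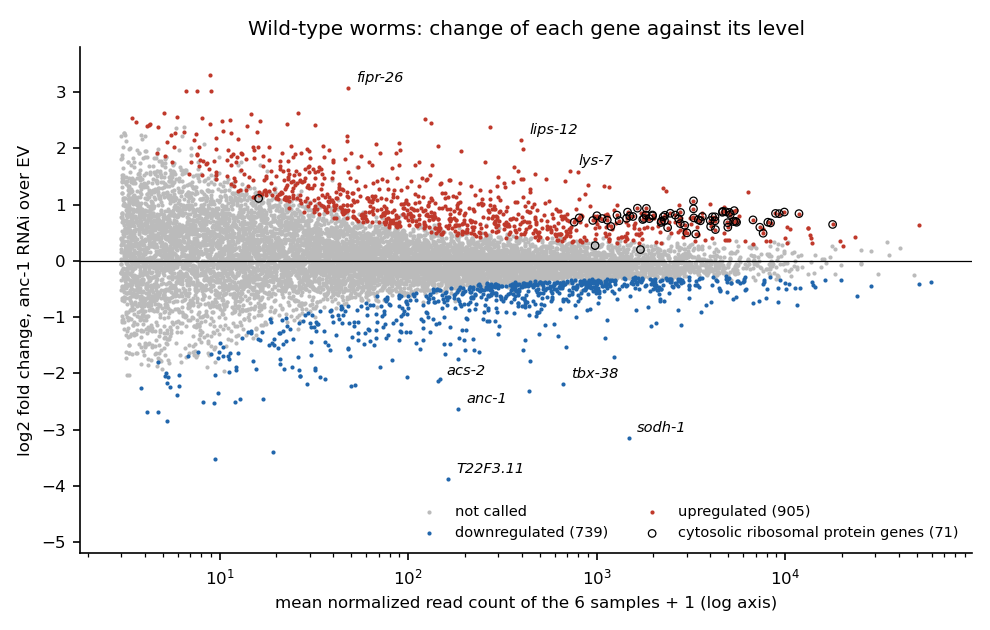
Log2 fold change of each of the 12061 genes (*anc-1* RNAi over EV, vertical axis) against its mean normalized read count + 1 in the 6 samples (horizontal log axis), red for upregulated, blue for downregulated and gray for genes not called. The 71 cytosolic ribosomal protein genes, circled, lie almost all in a band around a median of 0.75, while the lowest point is *T22F3.11*.

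The target itself (*anc-1*, WBGene00000140, chromosome I, 4321095 to 4359105 of WBcel235) had normalized read counts of 291, 306 and 349 in EV replicates 1 to 3 and 45.5, 68.4 and 39.6 in *anc-1* RNAi replicates 1 to 3. Every knockdown sample lay far below every EV sample (log2 fold change -2.64 ± 0.19, limma adjusted p 2.99e-07).

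Of its partners in the LINC complex and the lamina, *unc-84*, the SUN protein that anchors ANC-1, had 1468, 1466 and 1303 in EV and 1032, 1060.0 and 1215 in knockdown samples (log2 fold change -0.36 ± 0.10, limma adjusted p 0.0291), a call lost when EV replicate 1 (limma adjusted p 0.0898), EV replicate 2 (limma adjusted p 0.119), *anc-1* RNAi replicate 1 (limma adjusted p 0.11) or *anc-1* RNAi replicate 2 (limma adjusted p 0.0726) was left out. The lamin gene *lmn-1* had 2847, 2970.5 and 2524 normalized reads in EV and 1966, 2311 and 2150.4 in knockdown samples (log2 fold change -0.38 ± 0.10, limma adjusted p 0.0169), and that call was lost when EV replicate 1 (limma adjusted p 0.0545), EV replicate 2 (limma adjusted p 0.0992) or *anc-1* RNAi replicate 1 (limma adjusted p 0.0824) was left out. Both shifts were small beside that of the target, and neither pair of groups overlapped. *sun-1* and *zyg-12*, the SUN and KASH pair of the germline and embryo, and *unc-83* and *emr-1* were not called, with log2 fold changes of -0.05, -0.16, 0.20 and -0.18. Nuclear pore, importin and exportin genes leaned the same way, with 42 of 48 lower, a median of -0.17 and 8 called downregulated. That count was 0 without sample EV 2 or without the variance trend, 5 without sample EV 1 or *anc-1* RNAi 3 and 2 without sample *anc-1* RNAi 1.

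Genes of metabolism and of unknown function led the downregulated genes. The deepest change was that of *T22F3.11* (chromosome V, 3612173 to 3614551), which the files do not annotate further, with 209, 229 and 479 in EV and 27.3, 15.98 and 14.04 in knockdown samples. EV replicate 3 was more than 2 times the other EV samples, and the highest knockdown sample was still far below the lowest EV sample (log2 fold change -3.88 ± 0.29, limma adjusted p 3.32e-07). Next among genes with a mean value of at least 20 was the alcohol dehydrogenase gene *sodh-1*, with 2868, 2549 and 2574 normalized reads in EV and 295, 289 and 311 in knockdown samples (log2 fold change -3.15 ± 0.10, limma adjusted p 2.23e-12). *C44B7.5* had 779, 714 and 689 in EV and 194, 128 and 123 in knockdown samples (log2 fold change -2.32 ± 0.16, limma adjusted p 1.21e-07). Its samples were tight within each group and far apart between groups.

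Genes of fat use were called in both directions. *acs-2*, an acyl-CoA synthetase that feeds mitochondrial beta-oxidation, had 315, 250.4 and 141 normalized reads in EV and 42.05, 54.2 and 54.9 in knockdown samples (log2 fold change -2.14 ± 0.24, limma adjusted p 1.39e-05). The lysosomal lipase gene *lipl-1* had 86.04, 58.8 and 68.4 in EV and 17.05, 27.5 and 25.5 in knockdown samples (log2 fold change -1.58 ± 0.26, limma adjusted p 0.000491). No knockdown sample of *acs-2*, *lipl-1*, the lipase genes *lipl-2* and *lipl-5*, or the carnitine palmitoyltransferase gene *cpt-6* reached an EV sample, and the other log2 fold changes were -1.50, -0.85 and -0.77. *fmo-2*, a flavin monooxygenase gene, fell from 40.2, 27.3 and 34.2 under EV to 4.55, 1.78 and 1.28 under *anc-1* RNAi (log2 fold change -3.40 ± 0.44, limma adjusted p 4.70e-05), and *aqp-1*, a glycerol channel gene, had 279.9, 269.8 and 165 normalized reads in EV and 69.3, 49.7 and 43.4 in knockdown samples (log2 fold change -2.10 ± 0.22, limma adjusted p 8.65e-06). The lipase-related genes *lips-11* and *lips-12* rose, *lips-12* from 188, 98.2 and 142 under EV to 383, 681 and 886 under *anc-1* RNAi (log2 fold change 2.14 ± 0.25, limma adjusted p 1.96e-05), and so did *cpt-3* (1.53), *acdh-2* (1.86) and *acs-1* (0.54). Over 78 genes of lipid breakdown 9 were upregulated and 8 downregulated (median 0.10). The upregulated count was 5 without sample *anc-1* RNAi 1, and the downregulated count was 2 without the variance trend.

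Genes switched on in the early embryo formed a downregulated block. Adult hermaphrodites carry embryos and germline, and in whole worms fewer cells of a type cannot be told apart from less RNA per cell. Markers of the early embryo moved with this block, with 8 of 21 downregulated (21 of 28 on the list were present, median -0.84). Their summed normalized read count was 8714 to 9669.8 in EV samples and 5843 to 6768 in knockdown samples, and some of them are also members of the families described here. What part the number of embryos had in these changes was not tested.

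T-box factors are DNA-binding regulators of cell fate, and several of them act in the embryo. All 13 listed members had a negative log2 fold change, 7 were called (median -1.23) and 9 had all knockdown samples below all EV samples. *tbx-38* and *tbx-37*, a near-identical pair that acts redundantly in cells descended from the anterior founder cell, fell the most. Reads of one of the pair may have been counted on the other. *tbx-38* had 1005, 1271 and 993 in EV and 211, 221 and 278 in knockdown samples (log2 fold change -2.20 ± 0.14, limma adjusted p 4.25e-08). *tbx-37* had 19.5, 29.7 and 11.8 normalized reads in EV and 6.82, 1.78 and 1.28 in knockdown samples (log2 fold change -2.45 ± 0.53, limma adjusted p 0.00436), a call lost when EV replicate 2 (limma adjusted p 0.0524) was left out. *tbx-11* had 595, 794 and 654 in EV and 141, 194 and 277 in knockdown samples (log2 fold change -1.78 ± 0.19, limma adjusted p 9.04e-06), and *tbx-43* had 127, 127 and 121 normalized reads in EV and 25, 41.7 and 44.7 in knockdown samples (log2 fold change -1.77 ± 0.23, limma adjusted p 4.70e-05). These 4 genes had separate groups, as had *tbx-33* (-1.06), *tbx-8* (-0.97), which acts in embryonic body shape, and *sea-1* (-0.94). *tbx-2*, *tbx-9* and *tbx-36* were not called, at -0.06, -0.37 and -0.40, nor were the barely detected *tbx-7*, *tbx-39* and *tbx-40*, at -1.65, -1.23 and -1.64.

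**Figure D2:**
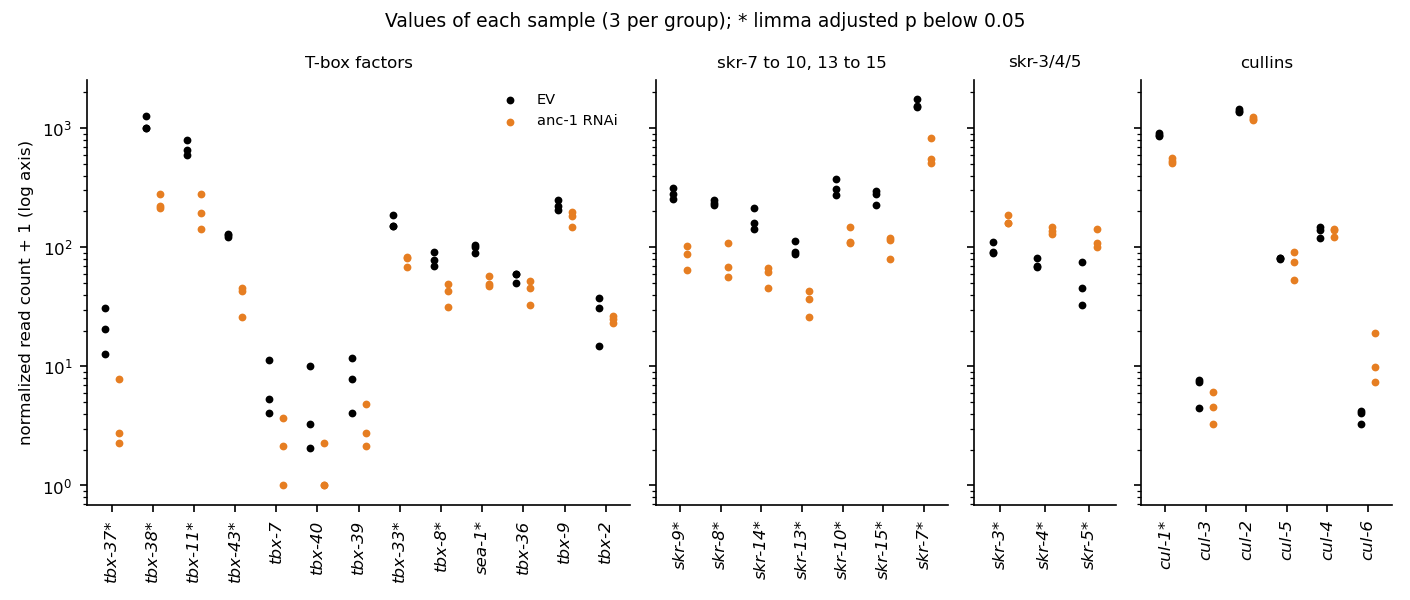
Normalized read count + 1 (log axis) of every EV (black) and *anc-1* RNAi sample (orange), 3 per group, for the T-box, *skr* and cullin genes, with a star on each called gene. The orange points lie below the black ones in all 7 genes of the *skr-7* to *skr-10* and *skr-13* to *skr-15* panel and above them in all 3 genes of the *skr-3* to *skr-5* panel.

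Skp1-related proteins (SKR) bridge a cullin to an F-box protein in SCF ubiquitin ligases, and the worm has many of them. Their responses split by clade. All 7 genes *skr-7* to *skr-10* and *skr-13* to *skr-15* were downregulated, by log2 fold changes of -1.75 (*skr-9*) to -1.36 (*skr-7*), and they stayed called in every fit tried. *skr-9* had 252, 310.4 and 277 in EV and 63.6, 86.1 and 102 in knockdown samples (log2 fold change -1.75 ± 0.18, limma adjusted p 7.58e-06). *skr-7* had 1518, 1744 and 1499 normalized reads in EV and 551, 508 and 828 in knockdown samples (log2 fold change -1.36 ± 0.15, limma adjusted p 1.09e-05). The groups of all of these genes were separate. *skr-13*, *skr-9* and *skr-8* lie beside one another on chromosome IV (17162028 to 17165853), and since these genes are close copies, reads of one may have been counted on another. How reads that match several genes were treated is not given in the sources used here. In contrast, *skr-3*, *skr-4* and *skr-5* were upregulated (0.79, 0.92 and 1.26), with *skr-5* at 44.7, 31.5 and 73.8 in EV and 107, 99.4 and 140.4 in knockdown samples (log2 fold change 1.26 ± 0.26, limma adjusted p 0.00309), and none of the 9 remaining *skr* genes was called by limma, edgeR or DESeq2, with 2 lower at an unadjusted limma p under 0.05.

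The other parts of the SCF ligase moved unevenly. *cul-1*, the cullin that SKR-7, SKR-8 and SKR-10 bind, had 873, 905 and 859.7 normalized reads in EV and 507, 566 and 526 in knockdown samples (log2 fold change -0.72 ± 0.11, limma adjusted p 0.000162) with separate groups. The low *cul-6* had 2.29, 3.03 and 3.21 in EV and 18.2, 8.88 and 6.38 in knockdown samples, separate in the other direction but not called (log2 fold change 1.55, limma adjusted p 0.0537). It was called by edgeR on the recovered reads, with a log2 fold change of 1.92 and adjusted p 0.04. No other cullin was called. Among F-box genes, the *fbxb* family had the lowest median, -0.75, with 72 of 81 members lower, 17 downregulated and 0 upregulated. The 28 *fbxc* genes had a median of -0.32, with 4 downregulated and 1 upregulated. That downregulated count was 1 without sample EV 3 and 2 without sample *anc-1* RNAi 1. The 84 *fbxa* genes had a median of 0.18, with 2 downregulated and 4 upregulated. Their upregulated count was 2 without the variance trend or without sample *anc-1* RNAi 1/3. *fbxb-119* had 53.9, 67.3 and 44.9 normalized reads in EV and 5.68, 8.88 and 31.9 in knockdown samples (log2 fold change -2.10 ± 0.44, limma adjusted p 0.00321), and *fbxb-53* had 13.8, 18.8 and 22.5 in EV and 3.41, 3.55 and 5.10 in knockdown samples (log2 fold change -1.94 ± 0.42, limma adjusted p 0.00445). *fbxb-85*, *fbxb-90*, *fbxb-50*, *fbxb-41* and *fbxb-56* also fell (-1.92, -1.20, -1.09, -0.91 and -0.72). The *fbxb* count was 9 without sample EV 2 or by DESeq2, 7 without the variance trend and 10 without sample EV 3. E2 and E1 ubiquitin enzymes had 5 members downregulated and 1 upregulated of 22, and the downregulated count was 0 without sample EV 2 or without the variance trend, 2 without sample EV 1, 1 without sample *anc-1* RNAi 1 and 3 without sample *anc-1* RNAi 3. None of the 30 proteasome subunit genes was called by limma, edgeR or DESeq2 (4 were lower and 0 higher at an unadjusted limma p under 0.05), their log2 fold changes ran from -0.27 to 0.16, and 26 of them were below zero.

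The *vet*, *sdz* and *pes* genes were named as transcripts made by the embryo's own genome in its first divisions. Of 36 listed, 14 were downregulated and 2 upregulated, with a median of -0.92. *sdz-2* had 19.5, 44.9 and 31.01 normalized reads in EV and 9.09, 9.77 and 5.10 in knockdown samples (log2 fold change -1.83 ± 0.39, limma adjusted p 0.00351), *pes-10*, a classic early zygotic transcript, had 66.5, 81.2 and 63.1 in EV and 18.2, 24.9 and 28.1 in knockdown samples (log2 fold change -1.54 ± 0.25, limma adjusted p 0.000408), and *vet-2* had 251, 311 and 296 normalized reads in EV and 114, 87.9 and 123 in knockdown samples (log2 fold change -1.41 ± 0.16, limma adjusted p 1.97e-05). All 3 showed separate groups. *sdz-9*, *sdz-28*, *sdz-14*, *pes-5*, *sdz-7*, *vet-1*, *sdz-27* and *sdz-21* fell as well (-1.89 to -0.83), and *pes-4* rose (1.30). Without the variance trend 8 of the downregulated genes were still called.

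Some other regulators of embryonic cell fate fell with them. The forkhead genes *fkh-4* and *fkh-3*, a neighboring pair of close copies on the X chromosome whose reads may not be told apart, had log2 fold changes of -1.59 and -1.16. *fkh-4* was at 519, 652 and 666 in EV and 188, 173 and 253 in knockdown samples. *ceh-32*, a Six-family homeobox gene of head development, had 260.4, 364 and 271 normalized reads in EV and 71.6, 86.1 and 149 in knockdown samples (log2 fold change -1.59 ± 0.22, limma adjusted p 9.28e-05). The neurogenin gene *ngn-1* had 55.1, 70.9 and 42.8 in EV and 11.4, 21.3 and 22.97 in knockdown samples (log2 fold change -1.58 ± 0.31, limma adjusted p 0.00196). Also downregulated were *nhr-2* (-1.33), a nuclear receptor gene of the early embryo, *egl-18* (-1.14), a GATA factor gene of the epidermis, *die-1* (-1.06), a zinc finger gene needed for the embryo to take shape, *hlh-2* (-0.66), the E protein partner of other bHLH factors, and the homeobox genes *ceh-40* (-1.23), *ceh-37* (-1.06) and *ceh-21* (-0.77). None of these genes had overlapping groups. Whole families did not fall alike. Of 62 homeobox genes 12 were down (19.4%) and 6 up (9.68%). Of 157 nuclear hormone receptor genes 3 were down (1.91%) and 9 up (5.73%), both under the shares of all genes (6.13% and 7.5%). Of 9 GATA factor genes 7 were higher (median 0.21), and *egl-18* was the only call. Forkhead genes had 7 of 14 higher (median 0.08), with 3 down and 1 up. Of 23 bHLH genes 14 were lower (median -0.22) and 3 were called down, 0 without the variance trend. The homeobox counts were 3 without the variance trend and 7 without sample EV 2 for downregulated and 2 without sample *anc-1* RNAi 1 or without the variance trend and 3 without sample EV 1 or *anc-1* RNAi 3 for upregulated genes. Those of the receptors were 1 without the variance trend and 5 without sample *anc-1* RNAi 1 for downregulated and 3 without the variance trend for upregulated genes.

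Genes that count X chromosomes against autosomes in the embryo, to set its sex, were lower, and were picked after their values were seen. *sex-1*, a nuclear receptor gene on the X, had 812, 1063 and 1018 normalized reads in EV and 447, 586 and 661 in knockdown samples (log2 fold change -0.78 ± 0.14, limma adjusted p 0.00112). The autosomal signal *sea-2* had 444, 587 and 406 in EV and 248, 265 and 332 in knockdown samples (log2 fold change -0.76 ± 0.15, limma adjusted p 0.00255), and *sea-1*, the T-box gene named above, is the other autosomal signal. On the X, *fox-1* (-0.61), called in the full fit, lost its call when EV replicate 2 (limma adjusted p 0.0889) or *anc-1* RNAi replicate 1 (limma adjusted p 0.0575) was left out, and *ceh-39* (-0.84) lost it when EV replicate 1 (limma adjusted p 0.0555), EV replicate 3 (limma adjusted p 0.104) or *anc-1* RNAi replicate 1 (limma adjusted p 0.112) was left out. In these 5 genes the groups did not overlap. Their shared target *xol-1* was not called (-0.51, limma adjusted p 0.193).

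Maternal and cell division genes fell by less. All 16 oocyte markers were lower too (median -0.23, 4 called, 0 without the variance trend and 7 without sample *anc-1* RNAi 2), with a summed value of 196994 to 240453 in EV samples and 159690.0 to 193109 in knockdown samples, and the part of oocyte number was not tested. Of 34 maternal RNA-binding regulators 7 were downregulated (median -0.20). *oma-1*, which holds back translation in the oocyte, had 2907, 2952 and 2827 normalized reads in EV and 2016, 2226 and 2107 in knockdown samples (log2 fold change -0.45 ± 0.09, limma adjusted p 0.00239), and *pos-1*, a regulator of posterior fate, had 36532, 30901 and 32138 in EV and 23603, 25549.9 and 23570.5 in knockdown samples (log2 fold change -0.45 ± 0.09, limma adjusted p 0.00218). *gld-3* (-0.59) and *spn-4* (-0.56) fell too. The maternal count was 0 without the variance trend, 4 without sample EV 2 or *anc-1* RNAi 1/3 and 12 without sample *anc-1* RNAi 2. Replication and cell cycle genes had 21 of 121 downregulated and 2 upregulated (median -0.19), among them the B-type cyclin genes *cyb-1* (-0.73) and *cyb-3* (-0.72), the phosphatase genes *cdc-25.3* (-0.90) and *cdc-25.2* (-0.62), the replicative helicase genes *mcm-7* (-0.67) and *mcm-3* (-0.48), the clamp gene *pcn-1* (-0.52) and *rnr-1* (-0.68), a ribonucleotide reductase gene. *cyb-3* had 8559, 9886 and 8803 normalized reads in EV and 5032, 5584 and 5933 in knockdown samples (log2 fold change -0.72 ± 0.09, limma adjusted p 4.95e-05). The groups of the genes named in this paragraph were separate. The count of this list was 4 without the variance trend and 12 without sample EV 2 or *anc-1* RNAi 1.

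Genes of splicing factors and chromatin regulators were mostly lower, and a part of them was called. The splicing list had 63 of 75 genes lower and 12 called downregulated (median -0.23). *rsp-3*, an SR protein gene, had 9172, 10146 and 9730.1 in EV and 5545, 5826 and 7017 in knockdown samples (log2 fold change -0.67 ± 0.10, limma adjusted p 0.000162). *uaf-2*, the small subunit that reads the 3' splice site, had 625, 811 and 707 normalized reads in EV and 420.5, 448 and 458 in knockdown samples (log2 fold change -0.68 ± 0.12, limma adjusted p 0.000866). The SR genes *rsp-1* (-0.57), *rsp-4* (-0.48) and *rsp-2* (-0.45) and the cyclophilin gene *cyn-8* (-1.12) fell as well. In this list 12 genes were higher, and 1 of them was called upregulated, the low cyclophilin gene *cyn-17*. It rose from 1.15, 2.42 and 4.28 under EV to 18.2, 15.98 and 20.4 under *anc-1* RNAi. The downregulated splicing count was 1 without the variance trend and 7 without sample EV 2 or *anc-1* RNAi 1. In the list of chromatin and vulval repressor genes 63 of 77 were lower and 12 were called downregulated (median -0.26), a count of 1 without the variance trend, 2 without sample EV 2, 7 without sample EV 3 or *anc-1* RNAi 3 and 5 without sample *anc-1* RNAi 1. *lin-53*, a histone chaperone gene (-0.48), and *set-1*, a histone H4 methyltransferase gene (-0.52), fell. The linker histone gene *his-24* had 15307, 15237 and 13199 in EV and 6794, 8128 and 11009.9 in knockdown samples (log2 fold change -0.78 ± 0.13, limma adjusted p 0.000567), and *his-72*, a histone H3.3 gene, changed by -0.48. Histone genes as a family were split, with 11 of 24 higher and 13 lower (median -0.01). Of them 3 were called downregulated, 1 without the variance trend.

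Notch signaling sets cell fate between touching cells, in the embryo and in the stem cell niche of the gonad. Of its 23 listed genes 20 were lower and 7 downregulated (median -0.34). The ligand gene *lag-2* had 28.7, 35.2 and 22.5 normalized reads in EV and 4.55, 15.1 and 10.2 in knockdown samples (log2 fold change -1.55 ± 0.40, limma adjusted p 0.0139) and lost its call when EV replicate 2 (limma adjusted p 0.0898) or *anc-1* RNAi replicate 1 (limma adjusted p 0.0575) was left out. The ligand gene *dsl-2* had 169, 189.7 and 156 in EV and 54.6, 49.7 and 96.99 in knockdown samples (log2 fold change -1.40 ± 0.22, limma adjusted p 0.000311). *lst-1*, a target of the germline receptor, had 3177, 3168 and 3179.9 normalized reads in EV and 2466, 2344 and 2477 in knockdown samples (log2 fold change -0.39 ± 0.09, limma adjusted p 0.00616). All 3 had separate groups. The Notch count was 1 without the variance trend, 4 without sample EV 1 or *anc-1* RNAi 1 and 2 without sample EV 2. Among the innexins, which build gap junctions, *inx-8*, a gene of the gonadal sheath that couples it to the germline, had 633, 569 and 604 in EV and 242, 254 and 188 in knockdown samples (log2 fold change -1.41 ± 0.13, limma adjusted p 5.09e-06), and *inx-3*, which is used widely in embryos, fell too (-0.71). The family as a whole had 4 up and 4 down of 22. The upregulated innexin count was 2 without sample EV 1/3 or by DESeq2 and 1 without sample *anc-1* RNAi 2/3 or without the variance trend, and the downregulated one 1 without the variance trend and 2 without sample EV 2/3 or *anc-1* RNAi 2.

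Autophagy genes of the embryo fell while the general cargo receptor rose. *sepa-1* and *epg-2* encode receptors through which somatic cells of the embryo clear germ granule proteins. *sepa-1* had 137, 189.7 and 149.7 normalized reads in EV and 55.7, 41.7 and 77.8 in knockdown samples (log2 fold change -1.46 ± 0.22, limma adjusted p 0.000212), *epg-2* had 3006, 3999 and 3458 in EV and 1664, 1791 and 2227 in knockdown samples (log2 fold change -0.88 ± 0.12, limma adjusted p 8.35e-05), and neither had overlapping groups. *atg-18*, which acts in autophagosome formation, changed by -0.39. *sqst-1*, the p62 receptor gene, had 87.2, 86.1 and 88.7 normalized reads in EV and 145, 135 and 135 in knockdown samples (log2 fold change 0.66 ± 0.16, limma adjusted p 0.011) with all knockdown samples above all EV samples. Of 26 autophagy genes 5 were downregulated and 1 upregulated. That downregulated count was 0 without the variance trend and 3 without sample EV 2 or *anc-1* RNAi 1.

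Genes of the cytosolic ribosome rose together. Of 71 ribosomal protein genes 68 were upregulated and 0 downregulated, the median was 0.75, and in 70 of them all knockdown samples lay above all EV samples. The 68 calls held with any one sample left out. *rps-0*, a small subunit gene, had 2393, 1721 and 2228 in EV and 4325, 3778 and 5149.6 in knockdown samples (log2 fold change 1.07 ± 0.13, limma adjusted p 2.41e-05). *rpl-1*, of the large subunit, had 1317, 1244 and 1226 normalized reads in EV and 2235, 2505 and 2494 in knockdown samples (log2 fold change 0.93 ± 0.10, limma adjusted p 7.58e-06). The change was close to uniform, and the called members ran from 0.48 (*rpl-23*) to 1.07 (*rps-0*). The genes not called were *rpl-12*, *rla-2* and the low *rpl-37* (0.20, 0.27 and 1.11). The ribosomal protein genes *rpl-11.1* (1.01) and *C37A2.7* (0.87), which are not on the list, also rose. The rest of the translation machinery stood near the median of all genes. Mitochondrial ribosomal protein genes had a median of 0.09, with 2 of 61 upregulated, and tRNA synthetase genes a median of 0.05, with 1 of 32 upregulated. Those counts were 0 without sample EV 3 or *anc-1* RNAi 2 or without the variance trend and 1 without sample EV 1/2 or *anc-1* RNAi 1 for the mitochondrial ribosome and 0 without sample EV 2/3 or *anc-1* RNAi 1/3 or without the variance trend for the synthetases. Translation factor genes had 3 of 30 upregulated, with *eef-2*, the translocation factor gene, at 3436, 3585 and 3479 in EV and 4673, 4770.1 and 4502 in knockdown samples (log2 fold change 0.41 ± 0.09, limma adjusted p 0.00344), and that count was 6 among genes of mean value 10 or more or by edgeR or by DESeq2 or with library-size scaling, 0 without the variance trend and 1 without sample EV 2/3 or *anc-1* RNAi 1.

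**Figure D3:**
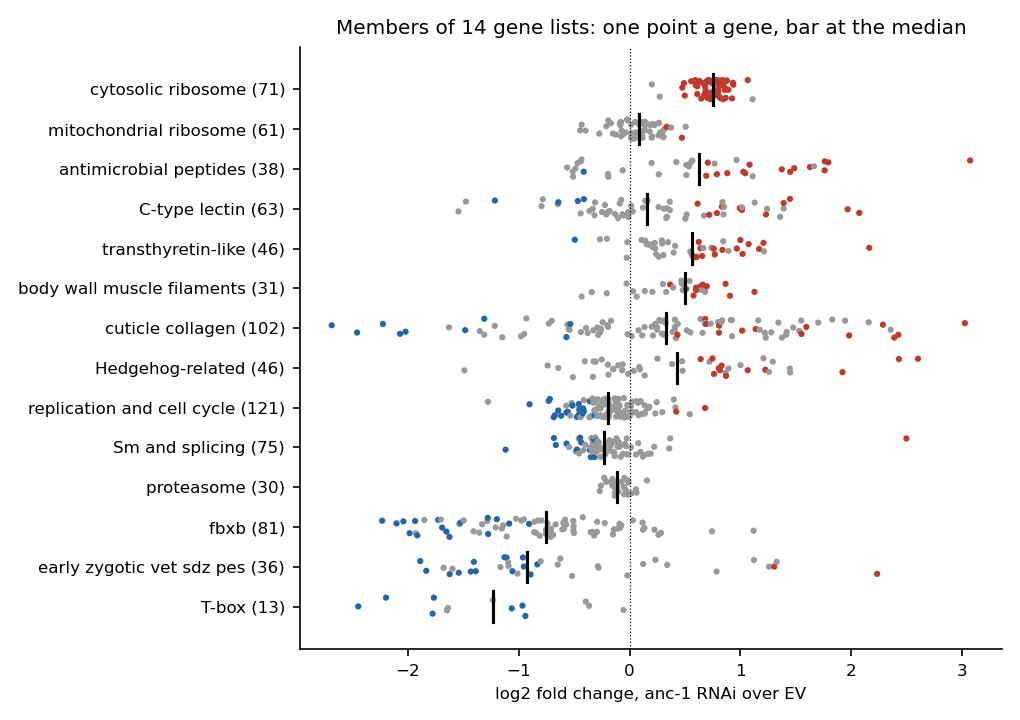
Log2 fold change (*anc-1* RNAi over EV, horizontal axis) of every listed member of 14 gene lists, one point per gene, red for upregulated, blue for downregulated and gray for not called, with a bar at each median. Cytosolic ribosomal proteins form a tight cluster at 0.75, collagens spread from -2.69 to 3.02, and every T-box member is left of zero.

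Many genes of epidermal and intestinal defense rose. Peptides of the *nlp*, *cnc*, *fip* and *fipr* families are secreted by the epidermis when the worm meets fungi or is wounded. Of 38 antimicrobial peptide genes 15 were upregulated and 1 downregulated, with a median of 0.63. The strongest, *fipr-26*, had 11.5, 9.09 and 6.42 normalized reads in EV and 119, 74.6 and 59.98 in knockdown samples (log2 fold change 3.07 ± 0.32, limma adjusted p 7.58e-06). The caenacin gene *cnc-6* had 118, 117 and 106 in EV and 539.8, 351 and 306 in knockdown samples (log2 fold change 1.76 ± 0.18, limma adjusted p 7.58e-06), and *nlp-29*, the standard marker of this response, had 80.3, 102 and 87.7 normalized reads in EV and 218, 184 and 154 in knockdown samples (log2 fold change 1.03 ± 0.18, limma adjusted p 0.000652). In none of these did a knockdown sample come down to an EV sample. *fipr-22*, *fip-6*, *fipr-3*, *cnc-4*, *nlp-34*, *cnc-7*, *nlp-31*, *fip-5*, *cnc-8*, *cnc-2*, *thn-2* and *nlp-27* rose by 1.79 down to 0.69. The peptide count was 7 without the variance trend. Markers of the hypodermis, the main epidermal layer, which include *nlp-29* and several collagen genes, moved with these genes. Of the 11 on the list 9 were present, 7 of them higher, 3 upregulated and 1 downregulated, with a median of 1.03. The upregulated markers were *nlp-29*, *dpy-7* and *sqt-3*, and the downregulated one was *col-19* (-0.53), a collagen gene of the adult cuticle, whose call was lost when EV replicate 2 (limma adjusted p 0.182), EV replicate 3 (limma adjusted p 0.187), *anc-1* RNAi replicate 2 (limma adjusted p 0.138) or *anc-1* RNAi replicate 3 (limma adjusted p 0.103) was left out. Those counts were 5 without sample *anc-1* RNAi 2 for upregulated and 0 without sample EV 2/3 or *anc-1* RNAi 2/3 or with library-size scaling or without the variance trend for downregulated markers. Their summed normalized read count was 1441 to 1702 in EV samples and 1751 to 2313 in knockdown samples, and what part the hypodermis's share of the RNA had in the defense and cuticle genes was not tested.

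Lysozyme, lectin and saposin-like genes joined them in part. Lysozyme genes, which encode enzymes that break bacterial walls, had 5 of 13 upregulated (median 0.80). *lys-8* had 3853, 3318 and 4222 in EV and 9472, 6468 and 5761 in knockdown samples (log2 fold change 0.90 ± 0.14, limma adjusted p 0.000301), and *lys-1* had 4092, 3777 and 4504 normalized reads in EV and 8826, 6423 and 6509 in knockdown samples (log2 fold change 0.80 ± 0.12, limma adjusted p 0.000135). *lys-7* and *lys-2* rose by 1.60 and 0.69. Galectin genes, which bind sugar chains, had 4 of 12 upregulated and 11 higher, with *lec-8* at 1192, 1328 and 1387 in EV and 2998, 3007 and 3573 in knockdown samples (log2 fold change 1.29 ± 0.10, limma adjusted p 5.91e-07). Of 63 C-type lectin genes 11 were up (17.5%) and 4 down (6.35%, near the 6.13% of all genes), from *clec-5* (2.07) to *clec-223* (-1.22). The saposin-like genes *spp-12* and *spp-9* rested on uneven replicates. *spp-12* had 41.3, 17.6 and 29.9 normalized reads in EV and 428, 147 and 70.2 in knockdown samples (log2 fold change 2.51 ± 0.44, limma adjusted p 0.000836) and *spp-9* had 49.3, 20.01 and 27.8 in EV and 478, 148 and 67.6 in knockdown samples (log2 fold change 2.44 ± 0.47, limma adjusted p 0.00174). *anc-1* RNAi replicate 1 was far above the other knockdown samples in both, yet both calls held without it, at log2 fold changes of 1.83 and 1.70. Without the variance trend 1 lysozyme and 4 C-type lectin genes were upregulated, and the downregulated lectin count was 0 without the variance trend and 2 without sample EV 1 or *anc-1* RNAi 1.

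Genes of the p38 immune pathway and of other infection responses were called in part. Of 13 listed regulators of immunity, those of the p38 pathway among them, 3 were upregulated and 0 downregulated, 8 were higher and 5 lower, and the median was 0.16. The upregulated count was 1 without the variance trend. *T24B8.5* (*sysm-1*), a standard reporter of the p38 MAP kinase PMK-1, had 59.7, 45.5 and 94.1 normalized reads in EV and 272, 138 and 165 in knockdown samples (log2 fold change 1.52 ± 0.26, limma adjusted p 0.00063), with all knockdown samples above all EV samples. Of the upregulated regulators, the bZIP factor gene *zip-2*, which drives another infection response, had 1320.4, 1230.0 and 1418 in EV and 2102, 2164 and 2523 in knockdown samples (log2 fold change 0.77 ± 0.10, limma adjusted p 6.17e-05), and *vhp-1*, a MAP kinase phosphatase gene, had 1377, 1823 and 1843 normalized reads in EV and 2455, 2554 and 2689 in knockdown samples (log2 fold change 0.62 ± 0.11, limma adjusted p 0.00107). The adaptor gene *tir-1*, which acts upstream of the p38 kinase, was called as well (0.42), and its call was lost when EV replicate 2 (limma adjusted p 0.0543), EV replicate 3 (limma adjusted p 0.0656), *anc-1* RNAi replicate 2 (limma adjusted p 0.0531) or *anc-1* RNAi replicate 3 (limma adjusted p 0.082) was left out. *zip-10* (1.27), *atf-2* (1.38) and *jun-1* (0.84), which also encode bZIP factors, rose too. Of 24 bZIP genes, a family not limited to immunity, 18 were higher and 6 lower (median 0.34), with 4 upregulated and 1 downregulated. The list of *dod*, *dct* and *irg* genes is not limited to infection genes, and its count is not one of an infection response. Of this list 11 of 32 were upregulated and 3 downregulated, with *dod-19* at 1.28 and *dct-13* at -1.72. The upregulated count was 2 without the variance trend and 7 without sample *anc-1* RNAi 1, and the downregulated one 0 without the variance trend and 1 without sample *anc-1* RNAi 1. Of 20 *pals* genes, some of which mark the intracellular pathogen response, 16 were higher (median 0.50) and 1, the gene the files name *C29F9.3*, was called (0.89).

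Many genes of the cuticle and of the layers laid down at a molt rose in these whole adult worms. Transcripts of the adults and of the embryos they carry cannot be told apart here, and the part of embryos was not tested. The cuticle is a coat of collagens and other secreted proteins made anew at each larval stage by the epidermis. Collagen genes went in both directions, with 14 up and 9 down of 102 (median 0.32). The hypodermis markers given above, with a median of 1.03, moved with the collagens and share *dpy-7* and *sqt-3* with them, and their part was not tested. The upregulated collagens included the classic body shape genes. *dpy-7* had 409.6, 338 and 399 in EV and 665, 666 and 671 in knockdown samples (log2 fold change 0.81 ± 0.12, limma adjusted p 0.000141), and *dpy-10* had 159, 187 and 170.0 normalized reads in EV and 292, 256 and 288 in knockdown samples (log2 fold change 0.69 ± 0.14, limma adjusted p 0.00254). *dpy-2*, *dpy-14*, *dpy-17* and *sqt-3* changed by 1.14, 1.02, 0.81 and 0.68. *dpy-2*, *dpy-7* and *dpy-10* encode collagens of the furrows between cuticle ridges. By contrast *col-81* had 82.6, 80.02 and 81.3 in EV and 15.9, 20.4 and 14.04 in knockdown samples (log2 fold change -2.23 ± 0.25, limma adjusted p 1.36e-05), and *col-139* and *col-159* fell too (-2.46 and -1.48). None of the collagen genes named here had overlapping groups. The collagen counts were 2 without the variance trend and 5 without sample EV 2 for downregulated and 6 without the variance trend for upregulated genes.

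Non-collagen matrix genes moved with the *dpy* genes. *noah-1*, a protein of the embryonic sheath and cuticle furrows, had 193, 253 and 211 normalized reads in EV and 302, 369 and 434 in knockdown samples (log2 fold change 0.74 ± 0.15, limma adjusted p 0.00314). *mlt-8*, which acts at the molt, had 117, 142 and 138 in EV and 210.2, 265 and 246 in knockdown samples (log2 fold change 0.86 ± 0.15, limma adjusted p 0.000966), and *cut-2*, a cuticlin gene, had 6.88, 9.09 and 3.21 normalized reads in EV and 60.2, 31.96 and 38.3 in knockdown samples (log2 fold change 2.63 ± 0.39, limma adjusted p 0.000177). The longest run of neighboring upregulated genes held lipocalin-related genes. The lipocalin-related genes *lpr-3*, *lpr-6*, *lpr-5* and *lpr-4* sit next to the claudin-like gene *clc-1* on chromosome X (11047415 to 11066811), and *lpr-3* encodes a protein of the apical coat of epidermis and tubes. *lpr-3* had 151, 249.8 and 201 in EV and 399, 374 and 345 in knockdown samples (log2 fold change 0.92 ± 0.16, limma adjusted p 0.000927). The other log2 fold changes of the run were 1.48, 1.58, 1.47 and 1.00 in the order above. These genes were picked for lying together, after their calls were known.

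Hedgehog-related and patched-related genes, which in worms take part in cuticle and tube formation, had 12 of 46 upregulated and 0 downregulated (median 0.43). *ptr-4*, a patched-related gene, had 44.7, 51.5 and 57.7 normalized reads in EV and 129.6, 90.6 and 107 in knockdown samples (log2 fold change 1.07 ± 0.20, limma adjusted p 0.0017), and the low *daf-6*, which shapes the channel of sensory organs, had 9.18, 1.82 and 1.07 in EV and 31.8, 20.4 and 17.9 in knockdown samples (log2 fold change 2.60 ± 0.54, limma adjusted p 0.00322). *grd-10*, *wrt-10*, *grd-5* and *grl-4* rose by 1.92, 0.83, 0.80 and 0.75. The count was 4 without the variance trend and 6 without sample *anc-1* RNAi 1. Among transcription factor genes, *nhr-25*, a nuclear receptor gene needed for molting, had 142, 194 and 167 normalized reads in EV and 441, 371 and 447 in knockdown samples (log2 fold change 1.32 ± 0.15, limma adjusted p 1.34e-05). *blmp-1*, a zinc finger gene of developmental timing, had 48.2, 48.5 and 37.4 in EV and 108, 95.9 and 88.1 in knockdown samples (log2 fold change 1.11 ± 0.20, limma adjusted p 0.00124), and *hbl-1*, another timing gene, had 44.7, 63.7 and 50.3 normalized reads in EV and 141, 98.5 and 144 in knockdown samples (log2 fold change 1.25 ± 0.21, limma adjusted p 0.000548). Groups of all 3 were separate. Transthyretin-like genes, a large secreted family of mostly unknown function, had 16 up and 1 down of 46 (median 0.56), with *ttr-43* at 4.59, 3.03 and 3.21 in EV and 17.05, 18.6 and 22.97 in knockdown samples (log2 fold change 2.16 ± 0.41, limma adjusted p 0.00171). Without the variance trend 5 of them were upregulated.

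Muscle filament genes rose by small amounts. Body wall muscle markers, which overlap this list, had 6 of 10 upregulated (2 without the variance trend) and a summed value of 7218 to 8005 in EV samples and 9515 to 11524 in knockdown samples, and the part of muscle's share of the RNA was not tested. Of 31 listed, 13 were upregulated, 27 were higher and the median was 0.50. *unc-89*, the giant obscurin of the M-line, had 118, 79.4 and 110.1 normalized reads in EV and 243, 199 and 226 in knockdown samples (log2 fold change 1.13 ± 0.17, limma adjusted p 0.000255). *tnt-2*, a troponin T gene, had 303, 304 and 399.9 in EV and 686, 542 and 652 in knockdown samples (log2 fold change 0.91 ± 0.14, limma adjusted p 0.000219), and *unc-15*, the paramyosin gene, had 865, 883 and 914 normalized reads in EV and 1429.7, 1276 and 1332 in knockdown samples (log2 fold change 0.60 ± 0.10, limma adjusted p 0.000499). In these genes every knockdown sample exceeded every EV sample. *pat-2* (an integrin alpha subunit), *unc-27* (troponin I), *dim-1*, *mlc-3* (a myosin light chain) and *lev-11* (tropomyosin) rose by 0.87, 0.64, 0.61, 0.58 and 0.51. Without the variance trend 2 were called. Of 26 tubulin, actin and intermediate filament genes 6 were upregulated and 2 downregulated (median 0.07). The upregulated members include *ifb-2* (0.76) and *act-5* (0.67), whose products lie under the brush border of the gut, and the tubulin gene *tbb-6* (1.96). The upregulated count was 2 without the variance trend, and the downregulated one 0 without sample EV 2 or *anc-1* RNAi 1 or without the variance trend and 1 without sample EV 1.

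Families of detoxification and digestive genes were called in part. Of 50 cytochrome P450 genes 8 were upregulated and 0 downregulated, led by *cyp-13A10* with 1.15, 5.46 and 3.21 in EV and 18.2, 15.98 and 19.1 in knockdown samples (log2 fold change 2.27 ± 0.48, limma adjusted p 0.00366), and 5 were upregulated without the variance trend. Of 51 UDP-glucuronosyltransferase genes 41 were higher (median 0.34) but 4 were called upregulated (7.84%, near the 7.5% of all genes), with *ugt-62* at 1.10. That upregulated count was 1 without the variance trend. Of 34 glutathione transferase genes 26 were higher (median 0.39) and 6 were upregulated, a count of 3 without sample EV 3 or *anc-1* RNAi 2 or by DESeq2, 0 without sample EV 2 or without the variance trend and 2 without sample EV 1 or *anc-1* RNAi 1/3. The cadmium-responsive genes *cdr-2* (1.64) and *cdr-4* (0.89) and the transporter gene *mrp-2* (1.09) rose. Of 33 protease genes 7 were upregulated and 1 downregulated (median 0.31), and the upregulated count was 0 without the variance trend, 2 without sample EV 2 or *anc-1* RNAi 1 and 4 without sample *anc-1* RNAi 3, the downregulated one 0 without the variance trend and 2 without sample *anc-1* RNAi 1. Among them *cpr-1*, a cathepsin B gene of the intestine, had 329, 297 and 355 normalized reads in EV and 236, 182 and 93.2 in knockdown samples (log2 fold change -1.03 ± 0.23, limma adjusted p 0.00614), while *asp-6* (0.68), an aspartyl protease gene, and *cpr-6* (0.60), another cathepsin B gene, rose.

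Yolk protein genes, transcribed in the intestine for export to oocytes, were slightly higher. All 6 had a positive log2 fold change, and 5 were called. *vit-5* had 41752, 34672 and 43568 in EV and 72139.6, 62367 and 52973 in knockdown samples (log2 fold change 0.64 ± 0.11, limma adjusted p 0.000792) with separate groups. The count was 0 without the variance trend, 2 without sample EV 1 and 1 without sample EV 2 or *anc-1* RNAi 1. The call of *vit-3* (0.46) was lost when EV replicate 1 (limma adjusted p 0.0585), EV replicate 2 (limma adjusted p 0.0768) or *anc-1* RNAi replicate 1 (limma adjusted p 0.0787) was left out. That of *vit-4* (0.40) was lost when EV replicate 1 (limma adjusted p 0.124), EV replicate 2 (limma adjusted p 0.17), *anc-1* RNAi replicate 1 (limma adjusted p 0.188) or *anc-1* RNAi replicate 3 (limma adjusted p 0.0669) was left out. *vit-3*, *vit-4* and *vit-5* are near-identical copies whose reads may not be told apart.

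Genes of secreted signals were called in small numbers. Of 27 insulin-like genes 3 were upregulated and 2 downregulated (median 0.35), and those counts were 1 without the variance trend for upregulated and 1 without sample EV 2 or among genes of mean value 10 or more or by edgeR or by DESeq2 and 0 without sample *anc-1* RNAi 1 or without the variance trend for downregulated genes. *ins-7* had 6.88, 12.1 and 20.3 normalized reads in EV and 42.05, 41.7 and 82.95 in knockdown samples (log2 fold change 2.04 ± 0.37, limma adjusted p 0.0011), and *ins-30* rose by 1.78. The low *ins-16* (2.40) lost its call when EV replicate 1 (limma adjusted p 0.061), EV replicate 2 (limma adjusted p 0.0782), *anc-1* RNAi replicate 1 (limma adjusted p 0.0942) or *anc-1* RNAi replicate 2 (limma adjusted p 0.0821) was left out. The downregulated members were *ins-34* (-0.89), whose call was lost when EV replicate 2 (limma adjusted p 0.0684) or *anc-1* RNAi replicate 1 (limma adjusted p 0.0589) was left out, and the low *ins-23* (-2.38), whose call was lost when EV replicate 1 (limma adjusted p 0.148), EV replicate 3 (limma adjusted p 0.127), *anc-1* RNAi replicate 1 (limma adjusted p 0.0985) or *anc-1* RNAi replicate 2 (limma adjusted p 0.0988) was left out, and which edgeR did not call. The neuropeptide gene *nlp-16* had 40.2, 61.8 and 50.3 in EV and 185, 177 and 137 in knockdown samples (log2 fold change 1.70 ± 0.20, limma adjusted p 2.41e-05), and the FMRFamide-like gene *flp-1* had 2.29, 4.85 and 1.07 normalized reads in EV and 20.5, 15.1 and 12.8 in knockdown samples (log2 fold change 2.30 ± 0.50, limma adjusted p 0.00445). Their groups were separate. Of 62 neuropeptide genes 5 were upregulated (8.06%, near the 7.5% of all genes) and 0 downregulated. Their upregulated count was 2 without the variance trend and 3 without sample EV 3. The motor neuron factor gene *unc-3* rose from 11.5, 12.7 and 3.21 under EV to 47.7, 27.5 and 35.7 under *anc-1* RNAi (log2 fold change 2.05 ± 0.42, limma adjusted p 0.00316).

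Several complexes had few or no called genes. None of the 21 vacuolar ATPase genes and none of the 8 CCT chaperonin genes was called, with log2 fold changes of -0.32 to 0.40 for the former and, apart from the low *cct-8* (-1.03), of -0.18 to 0.09 for the latter. edgeR and DESeq2 called none of them either, and 2 of the former and 0 of the latter were higher at an unadjusted limma p under 0.05. Of 47 respiratory chain genes *sdha-1*, a subunit of complex II, was called downregulated (-0.46) and 0 were called upregulated. Of 35 meiosis genes 1 was called, lost when EV replicate 2 (limma adjusted p 0.0788) or *anc-1* RNAi replicate 1 (limma adjusted p 0.0777) was left out (*brd-1*, -0.53). Genes that miss the threshold are not shown to be unchanged by it.

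**Figure D4:**
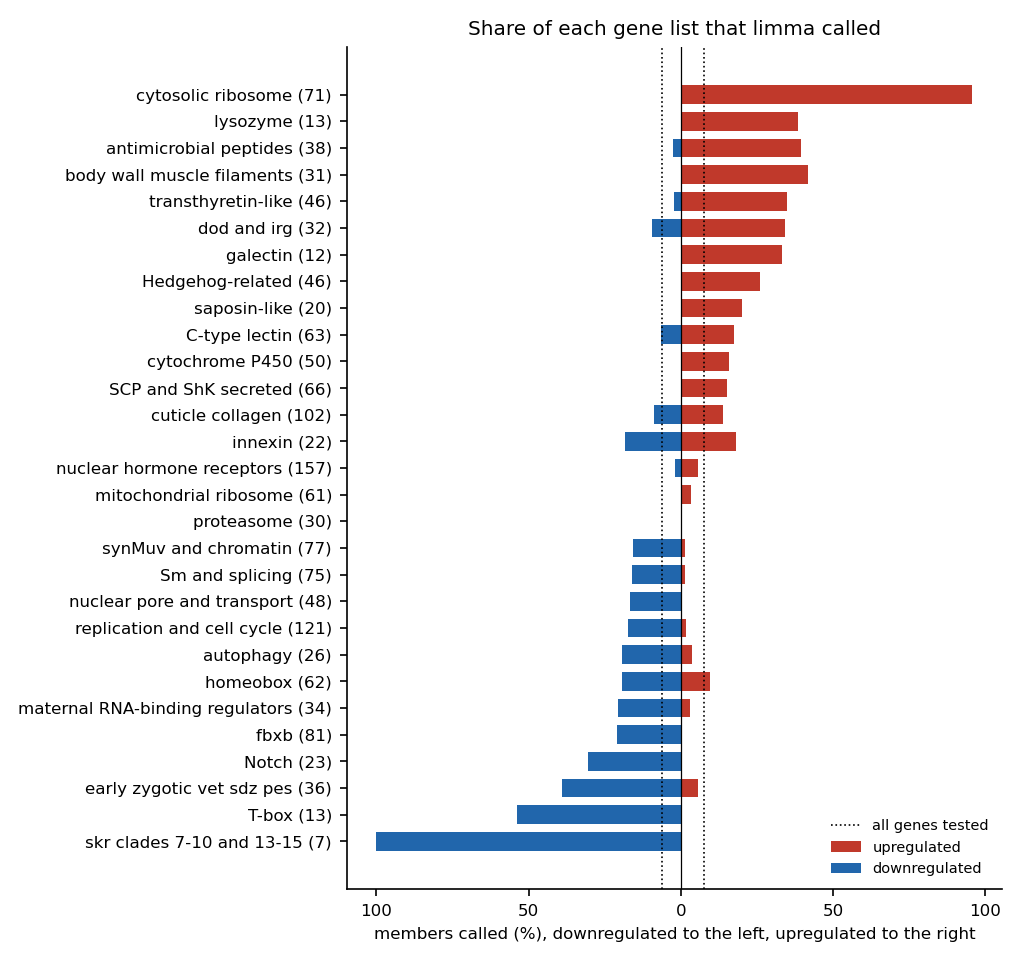
Share of the listed members of 29 gene lists that limma called downregulated (blue, left) and upregulated (red, right), in percent, with the number of listed members in brackets and dotted lines at the shares over all genes (7.5% up, 6.13% down). The cytosolic ribosome reached 95.8% upregulated and the *skr-7* to *skr-10* and *skr-13* to *skr-15* genes 100% downregulated, while the proteasome has no bar.

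Few markers of the remaining tissues were called. Germline nucleus markers had a median of -0.13, with 1 up of 15, the germ granule helicase gene *glh-1* (0.64), and 1 down, *lst-1*. Sperm markers were nearly absent, with 8 of 34 listed, a median of -0.91 and a summed value of 29.1 to 37.4 in EV samples and 21.7 to 23.9 in knockdown samples. Intestine markers, whose summed value was 8502 to 8676 and 8125 to 9119.9, had 2 up and 1 down of 14 (median -0.06). Neuron markers had 1 up and 1 down of 13 (median 0.25). The shares called in each direction, 6.67% of germline nucleus and 7.69% of neuron markers, were close to those of all genes (7.5% up, 6.13% down). The 5 pharynx markers listed had a median of 0.71, 4 of them higher, but none was called and the groups of all 5 overlapped. Their summed value was 93.4 to 174 in EV samples and 146 to 242 in knockdown samples. What part the share of each tissue had in the counts above was not tested.

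GO terms named in the deposited table, with 15 to 500 listed genes each, were ranked by the share of their genes called, with no test, and a term that shares most of its genes with a term already taken was left out, which removed further terms of the ribosome and of translation. The cytosolic large and small ribosomal subunits led the upregulated terms with 43 of 53 and 30 of 38 genes. Among the terms kept, the ribosome term (82 of 155) was followed by defense response to fungus with 8 of 22 and the cuticle development term of the molting cycle with 7 of 22. Downregulated terms were led by DNA replication initiation (7 of 15), 3'-UTR-mediated mRNA destabilization (6 of 15) and histone binding (9 of 26).

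Called genes were spread over all nuclear chromosomes, with the largest share on the X, where 10.2% of 1702 genes were upregulated and 8.70% downregulated. On chromosome I the shares were 5.43% and 6.14%. An upregulated gene often lay beside another, since 23.4% of upregulated genes had an adjacent upregulated gene in the list, against 14.3% of all genes. For downregulated genes these shares were 17.2% and 11.8%. The longest downregulated run was *W06D11.1*, *W06D11.2*, *W06D11.3*, *ceh-40* and *F17A2.13* on chromosome X (12293767 to 12322993), in which *W06D11.3* (-0.46) lost its call when EV replicate 1 (limma adjusted p 0.0525) or *anc-1* RNAi replicate 3 (limma adjusted p 0.0524) was left out.

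The same knockdown in polyQ35-YFP worms gave the same directions in several of the families above. Limma called 0.772% of the genes of that strain upregulated and 1.47% downregulated. All 71 ribosomal protein genes were higher there as well (median 0.57, 1 called), and all 7 *skr* genes that fell in wild-type worms were lower (median -1.43, 6 called). Among T-box genes 11 of 12 were lower (median -1.22, 6 called), and among antimicrobial peptide genes 29 of 37 were higher (median 0.78, 6 called). Body wall muscle filament genes had a median of 0.34. Replication and cell cycle genes, by contrast, had a median of -0.08, and maternal RNA-binding genes one of 0.05, where wild-type worms had -0.19 and -0.20, though no member of either list passed the test of the interaction between strain and treatment (lowest limma adjusted p 0.999 and 0.999). Of 30 proteasome genes 25 were higher in polyQ35-YFP worms, where 26 were lower in wild-type worms. Of 16 oocyte markers 9 were higher and 7 lower there, 2 of them called downregulated, where all 16 were lower in wild-type worms. No member of these 2 lists passed the interaction test either (lowest limma adjusted p 0.999 and 0.999).

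Tested gene by gene, the response differed between the strains in 0.00851% of the genes listed in both, which is 1 gene, *sodh-1*. It changed by -3.15 on the log2 scale in wild type and by -1.55 in polyQ35-YFP worms, a difference of -1.60 (wild type minus polyQ35-YFP, limma adjusted p 0.0462). With any one of the 6 wild-type samples left out, no gene passed this test. *nhr-25* was 1.32 in wild-type worms and -0.73 in polyQ35-YFP worms, and this difference did not pass (limma adjusted p 0.107). Collagens spread widely, with *dpy-7* at 0.81 and 0.21, *dpy-2* at 1.14 and 0.14, and *col-109* at 3.02 and 0.33 in that order of strains, and no member passed this test (lowest limma adjusted p 0.999).

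**Figure D5:**
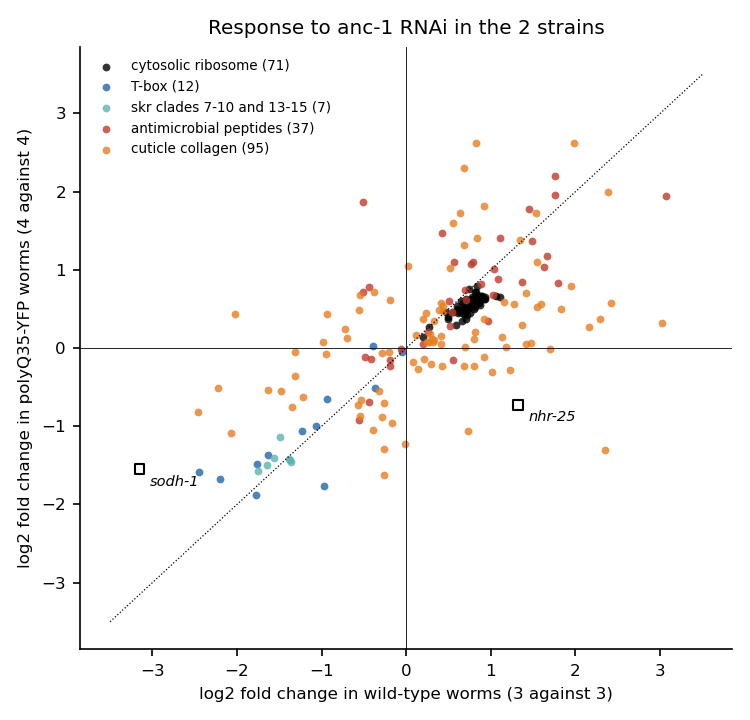
Log2 fold change (*anc-1* RNAi over EV) of members of 5 gene lists in polyQ35-YFP worms (vertical axis, 4 against 4 samples) against wild-type worms (horizontal axis, 3 against 3), one point per gene listed in both tables, with the line of equal response dotted. Ribosomal protein genes cluster above zero and falling *skr* genes below zero on both axes, collagens scatter, and *sodh-1* and *nhr-25* are boxed.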

How the data were processed

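Libraries of whole wild-type worms, day 6 of adulthood, were made by CEL-Seq2, which tags the 3' end of transcripts. Per the study's methods, the authors trimmed reads with cutadapt 1.12, aligned them to WBcel235 with TopHat2 2.1.1, assigned them to protein-coding genes by HTSeq 0.6.1, discarded genes with a mean under 2 reads and normalized with DESeq2 1.22.2. Their counting ignored the molecular identifiers (UMIs) of the reads. Each strain has a table of its own, and its values were taken here as normalized within that strain. The values are thus deposited as normalized counts, a signal per gene. Each value divided by a step per sample, the value of a single read, was whole within 0.01 (100% of 72366 values), which gave back the reads. How reads that match several genes were treated, and whether strand was used, is not given in the sources used here. Reads of copies such as *tbx-37* and *tbx-38*, *fkh-3* and *fkh-4*, or *lips-11* and *lips-12* may therefore not be told apart. Of the genes, 2824 overlap a protein-coding gene on the opposite strand, among those named *acs-1*, *aqp-1*, *cct-1*, *cdc-25.3*, *ceh-40*, *col-19*, *cut-2*, *epg-2*, *fipr-3*, *flp-1*, *ins-34*, *inx-3*, *lys-8*, *mcm-3*, *mcm-7*, *pat-2*, *rpl-37*, *rsp-2*, *skr-5*, *sodh-1*, *spn-4*, *tbx-38*, *tbx-7*, *unc-89*, *zip-10* and *zip-2*, and their reads may not be told apart. Columns of the authors' own fold changes, standard errors, test scores and p-values were deposited in the same tables and were not used. Of the gene symbols, 8 had been turned into dates and were restored from the gene identifiers.

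log2(value + 1) was fitted with limma 3.58.1 (R 4.3.3) with a variance trend, two-sided, in the 6 wild-type samples, and p-values were adjusted by Benjamini-Hochberg over all 12061 genes. The interaction with strain was fitted on all 14 samples. All members and gene lists were chosen with earlier results of these data known. The genes named were picked from several sets, and not every member of a set is named. These sets are *anc-1*, the 15 of largest change in each direction with a mean of 20 or more and separate groups, and up to 3 called genes per list and direction. They also include the genes of lists of 12 or fewer and the most abundant uncalled gene of a list. Other genes were chosen after their values were seen. Alternatives were pseudocounts of 0.5 and 5, a mean of 10 or more, library-size scaling, the replicate block, no variance trend, DESeq2 1.42.0 or edgeR 4.0.16 on whole reads, and leaving out each sample. Every value recovered was whole, and edgeR called 993 genes up and 674 down on them. Per the study's methods the wild-type samples are independent repeats, but the labels do not name separate cultures, so p-values measure the spread between these samples. The scripts were tested on simulated data.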

Additional observations from a re-analysis of the deposited data

Results flagged for a closer look

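The response of *sodh-1*, an alcohol dehydrogenase gene, differed between the strains by the test of the interaction between strain and treatment. Its log2 fold change (*anc-1* RNAi over EV) was -3.15 in wild-type worms and -1.55 in polyQ35-YFP worms, a difference of -1.60 (limma adjusted p 0.0462). *sodh-1* overlaps a gene on the opposite strand. The strains were taken as normalized separately, each in its own table, and the call was lost with any one wild-type sample left out, when 0 genes passed.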

How the results depend on the processing

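The count of upregulated genes was 905 and ran from 633 to 845 with one sample left out, and the count of downregulated genes was 739 and ran from 349 to 693, with the lowest count of both without EV replicate 2 and a downregulated count of 486 without *anc-1* RNAi replicate 1. Without the variance trend limma called 329 up and 155 down. edgeR called 993 up and 674 down, and DESeq2 821 up and 705 down. The sources do not tie same-numbered samples to one another. Deviations of same-numbered samples from their group means correlated at 0.0491, 0.0806 and 0.0740 over 9430 genes, those of other pairs at -0.108 to 0.0353, and each sample correlated best with its own number, a hint from the data and not from the design. With the replicate number as a block 1063 genes were called up and 897 down. Of the 225 genes named, the block changed no call, edgeR called 1 more (*cul-6*, which a pseudocount of 5 also called) and 1 fewer (*ins-23*), library-size scaling called 1 fewer (*col-19*), and DESeq2 changed no call among the 220 for which it gave an adjusted p. The interaction with strain was called for 1 gene, for 6 with the replicate block, and for 0 to 6 with one sample left out. The log2 fold change of *anc-1* stayed between -2.86 and -2.47 with any one sample left out. Of the genes named, none changed direction while called. The cause of these shifts was not tested. Promoter motifs were not run. Genes of low counts had the widest errors, and those not called are not shown to be unchanged.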
